A study of Mus musculus with 16 samples.

Results

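Claudins and connexins are the channel and barrier proteins of the contacts between neighbouring cells. Claudins are membrane proteins of the tight junction, the belt that seals the space between epithelial or endothelial cells, and the set of claudins a cell makes decides which ions pass along that space. Connexins assemble into gap junction channels that join the cytoplasm of adjoining cells and let ions and small molecules through. Both families are large, and their members are used by different tissues, so that the mix of members changes as embryonic cells take up different fates. The genes described here are all loci of the expression tables whose only gene name is Cldn or one of Gja, Gjb, Gjc, Gjd and Gje followed by a number. This gave 45 genes of 28432 loci, of which 25 were claudins and 20 were connexins.

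RNA was sequenced from day 6 embryoid bodies, which are floating clusters grown from embryonic stem cells. They were made by SFEBq, a serum-free suspension culture that starts from quickly reaggregated cells. The medium was GMEM with 5% knockout serum replacement (KSR), and matrigel, an extract of basement membrane, was present at 2% from day 1. All cells were mouse embryonic stem cells with GFP knocked in at Rx, an eye field gene. Of the 4 groups, the T48h rescue and the T12h rescue were Wdr5 KO cells to which doxycycline (Dox) was given at T48h or at T12h to induce human WDR5. The KO group was Wdr5 KO cells without Dox, and the WT group was untreated cells with the wild type Wdr5 gene. WDR5 is a subunit of the complexes that methylate histone H3 at lysine 4. The KO is a single clone (#3), and no group received Dox without WDR5, so that an effect of Dox and one of WDR5 cannot be told apart.

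Each group had 2 libraries, called a and b here with no order between them, after the technical columns of each were summed. The submitters call them biological duplicates, and nothing says that they came from separate cultures, so the p-values rest on a spread between libraries that may be technical. The libraries held 32476673 to 65687440 estimated counts in named loci. Values are CPM, the count of a gene set on one common library size, unless FPKM is written. FPKM also divides by transcript length and is used where members of a family are ranked or summed. Sums over lists of marker genes are in CPM, so genes with long transcripts weigh more in them. Wdr5 itself had 280 and 294 CPM in the T48h rescue, 329 and 337 CPM in the T12h rescue, 32.5 and 28.4 CPM in the KO and 186 and 187 CPM in WT. Its levels thus followed the labels, although the sources used here do not say whether fragments of human WDR5 were counted at the mouse locus. These are bulk samples, in which fewer cells of a type and less RNA per cell cannot be told apart.

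Sequence before a RefSeq start is shown for Cldn4, Cldn6 and Cldn7, since these 3 epithelial claudins moved with the KO and each holds the letters CAGGTG, or CACCTG on the other strand, within 250 bases before a RefSeq start. This motif is the E-box core that the Snail and Zeb repressors are known to bind. The sequences are from RefSeq (build GRCm38.p6), are written on the strand of the gene and have the motif in capitals. The Cldn4 sequence covers the 250 bases before its start, at chr5:134946935-134947184 on the minus strand, and its motif begins 14 bases before the start. The Cldn6 stretch lies at chr17:23679260-23679289 on the plus strand and its motif begins 93 bases before the start. The Cldn7 stretches lie at chr11:69965312-69965341 and chr11:69965352-69965381 on the plus strand, with motifs that begin 97 and 57 bases before a second RefSeq start of the gene. In the GENCODE annotation the Cldn6 transcript starts earlier, at 23679249, and Cldn7 at 69964779. These 3 stretches thus lie upstream of a RefSeq start but within the annotated gene. The 250 bases before each of these RefSeq starts overlap an untranslated region of the gene. Whether the stretches themselves do was not determined. Only the Cldn4 sequence lies outside the GENCODE gene.
Cldn4 upstream: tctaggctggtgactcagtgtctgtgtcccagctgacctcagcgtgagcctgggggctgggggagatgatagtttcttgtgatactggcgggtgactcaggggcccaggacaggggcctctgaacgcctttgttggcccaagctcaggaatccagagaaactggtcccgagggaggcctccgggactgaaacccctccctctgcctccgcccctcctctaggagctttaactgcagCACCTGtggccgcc
Cldn6 E-box: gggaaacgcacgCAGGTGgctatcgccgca
Cldn7 E-box 1: tttcttcctcttCACCTGgacgaggagggg
Cldn7 E-box 2: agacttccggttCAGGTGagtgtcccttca
Of the 6 motifs searched after values were seen, only this motif is given here. Over all members with a RefSeq promoter, 8 of 43 windows (18.6%) held the motif, which is close to the 17.2% of all 32851 windows. The other members with it were Cldn14, Gja3, Gjb1, Gjb2 and Gjd2. A match of these letters is a description of the sequence and not a site.

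Of the 45 genes, 12 reached a mean of 5 CPM or more in a group. Among these were the claudins Cldn6, Cldn4, Cldn7, Cldn12, Cldn25, Cldn5 and Cldn2 and the connexins Gja1, Gjc1, Gjb5 and Gja4. Just under that level lay Cldn11, at 4.8 CPM in the T48h rescue. In all, 24 genes (15 claudins and 9 connexins) passed the filter on low counts and were tested. The other 21 (10 claudins and 11 connexins) had a highest group mean between 0 and 0.532 CPM, and 2 of them, Cldn16 and Gje1, had no count in any library. The 0.532 CPM belonged to Gja5, a connexin of the atria and of arterial endothelium, in the KO. Some names need care. The locus named Cldn25 is Cldnd1, a claudin domain protein, in the GENCODE annotation, and the locus named Cldn26 is Tmem114. The loci of Cldn20, Cldn22, Gja6, Gjd2 and Gje1 overlap other genes, and the strand setting of the counting is not given in the sources used here.

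**Figure D1:**
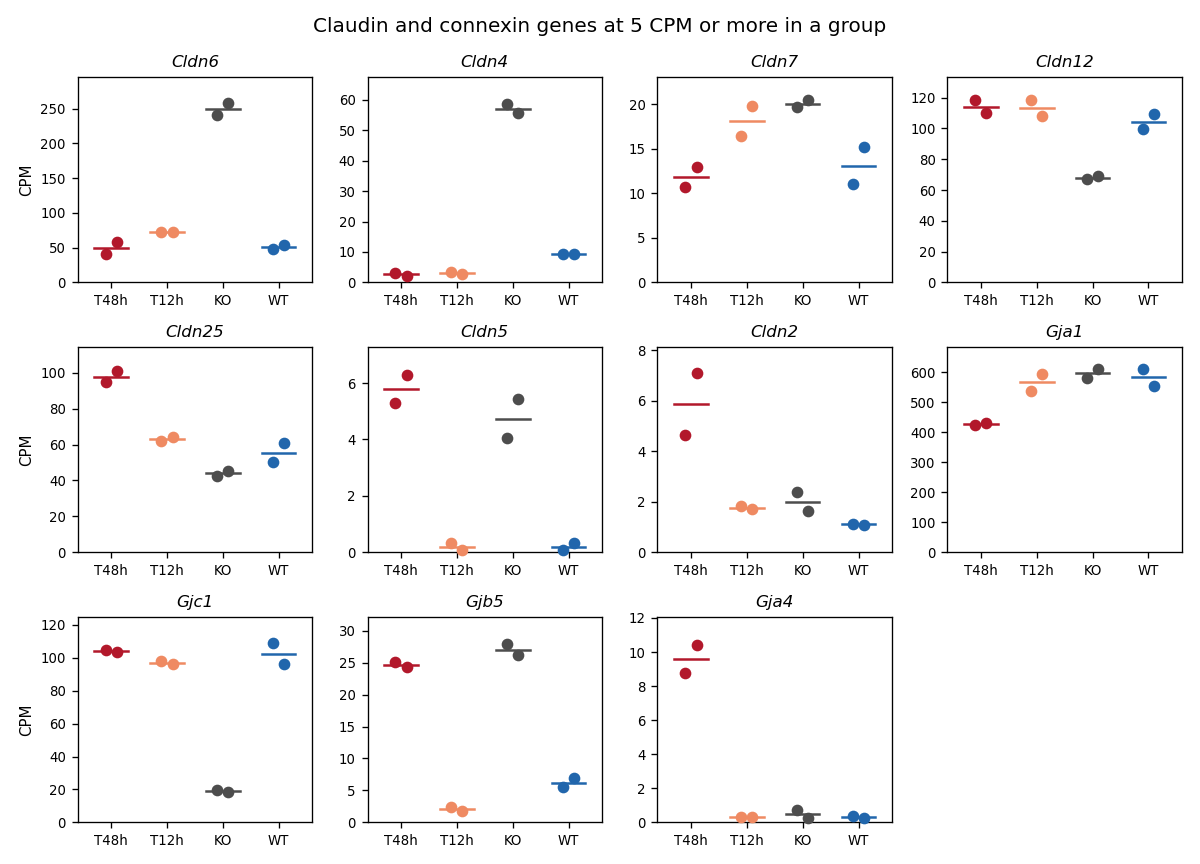
CPM of 11 claudin and connexin genes that reached 5 CPM in a group, by group, with a point for each library and a line at the mean of the 2 libraries. Cldn6 lies at 240 and 258 CPM in the KO and between 41.1 and 72.5 CPM in the other groups, Gjc1 lies at 19.6 and 18.2 CPM in the KO and between 96.4 and 109 CPM elsewhere, and Gja4 stands above 1 CPM in the T48h rescue alone.

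Cldn6, a claudin of embryonic epithelia, had the highest FPKM of the claudins in the KO. It had 41.1 and 57.5 CPM in the T48h rescue, 72.5 and 71.9 CPM in the T12h rescue, 240 and 258 CPM in the KO and 48.4 and 53.8 CPM in WT. Both KO libraries lay far above all others, and the T48h rescue libraries lay on either side of the WT ones. Cldn6 was higher in the KO than in WT by 2.29 ± 0.13 on the log2 scale (SE, n = 2 each, edgeR adjusted p = 5.03e-09). It fell in the T12h rescue against the KO by 1.79 ± 0.12 (edgeR adjusted p = 3.95e-08). In the T48h rescue against the KO it fell by 2.33 ± 0.13 (edgeR adjusted p = 3.33e-09). The T48h rescue and WT differed by -0.05 on the log2 scale, which did not pass the test but did so without T48h replicate b (-0.33, edgeR adjusted p = 0.023, range over the alternatives 0.023 to 0.945). Its neighbour Cldn9 lies on the opposite strand of chromosome 17. The 2 genes point toward each other, with a gap of 138 bases between their downstream ends. The strand setting is not given, so whether strand separated reads of the 2 genes where they meet is not known.

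Cldn4, a barrier claudin of simple epithelia, had the largest fall among the tested claudins in the T48h rescue against the KO. It had 3.16 and 2.11 CPM in the T48h rescue, 3.42 and 2.64 CPM in the T12h rescue, 58.5 and 55.6 CPM in the KO and 9.37 and 9.29 CPM in WT. The KO libraries were again the highest, and both rescues lay below WT without overlap. The log2 fold change was 2.61 ± 0.19 in the KO against WT (edgeR adjusted p = 5.30e-08). It was -4.23 ± 0.20 in the T12h rescue against the KO (edgeR adjusted p = 1.12e-09) and -4.44 ± 0.21 in the T48h rescue against the KO (edgeR adjusted p = 8.11e-10). Against WT, Cldn4 remained lower in the T12h rescue by a log2 change of -1.61 ± 0.20 (edgeR adjusted p = 0.000144) and in the T48h rescue by -1.83 ± 0.20 (edgeR adjusted p = 6.35e-06). Rescued embryoid bodies thus had less Cldn4 RNA than WT ones at both times of induction.

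Cldn7, which is found along the lateral membrane of epithelial cells as well as at tight junctions, changed much less. It had 10.7 and 13.0 CPM in the T48h rescue, 16.5 and 19.9 CPM in the T12h rescue, 19.7 and 20.5 CPM in the KO and 11 and 15.2 CPM in WT. The T12h rescue and the KO overlapped, and so did the T48h rescue and WT. Cldn7 was higher in the KO than in WT by 0.61 ± 0.18 on the log2 scale (edgeR adjusted p = 0.0106), and this call did not hold without WT replicate a (log2 fold change 0.38, adjusted p = 0.169, range over the alternatives 0.00201 to 0.169). It was lower in the T48h rescue than in the KO by a log2 change of -0.76 ± 0.18 (edgeR adjusted p = 0.00274).

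Cldn12 and the locus named Cldn25 went the other way in the KO. Cldn12 is an atypical claudin that lacks the tail motif by which most claudins bind the scaffold proteins of the junction. It had 118 and 110.0 CPM in the T48h rescue, 119 and 108 CPM in the T12h rescue, 66.9 and 68.8 CPM in the KO and 99.9 and 109 CPM in WT. The KO libraries were the lowest of all, and the T12h rescue overlapped both the T48h rescue and WT. Cldn12 fell in the KO against WT by 0.62 ± 0.08 on the log2 scale (edgeR adjusted p = 2.14e-05), and rose against the KO by 0.74 ± 0.08 in the T12h rescue (edgeR adjusted p = 4.03e-06) and by 0.75 ± 0.08 in the T48h rescue (edgeR adjusted p = 3.22e-06). Cldn25 had 94.6 and 101 CPM in the T48h rescue, 62.2 and 64.0 CPM in the T12h rescue, 42.6 and 45.3 CPM in the KO and 50.2 and 60.8 CPM in WT. The 4 groups did not overlap, with the T48h rescue the highest and the KO the lowest. The T48h rescue exceeded the KO by 1.15 ± 0.10 on the log2 scale (edgeR adjusted p = 3.04e-07) and WT by 0.82 ± 0.10 (edgeR adjusted p = 1.62e-05).
The fall of Cldn25 in the KO against WT, by 0.34 ± 0.10 on the log2 scale (edgeR adjusted p = 0.00979), was lost without WT replicate b (log2 fold change -0.22, adjusted p = 0.122) and without KO replicate a (-0.30, adjusted p = 0.0598). It was also lost with limma on log2(FPKM + 1) (adjusted p = 0.0507), and its adjusted p ranged from 0.00216 to 0.122 over the alternatives.

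Cldn5, the main claudin of endothelial cells, had 5.31 and 6.30 CPM in the T48h rescue, 0.315 and 0.0661 CPM in the T12h rescue, 4.04 and 5.42 CPM in the KO and 0.0832 and 0.326 CPM in WT. It was present in the T48h rescue and the KO, which overlapped, and near 0 in the T12h rescue and WT, which overlapped as well. It was higher in the KO than in WT by 4.53 ± 0.62 on the log2 scale (edgeR adjusted p = 2.80e-05), and lower in the T12h rescue than in the KO by a log2 change of -4.57 ± 0.60 (edgeR adjusted p = 1.81e-05). The T48h rescue exceeded the T12h rescue by 4.87 ± 0.60 (edgeR adjusted p = 1.80e-05). The T48h rescue differed from the KO by 0.30 on the log2 scale, which did not pass the test.

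Cldn2, which forms cation and water channels in leaky epithelia, was highest in the T48h rescue. It had 4.66 and 7.08 CPM in the T48h rescue, 1.85 and 1.70 CPM in the T12h rescue, 2.40 and 1.62 CPM in the KO and 1.11 and 1.1 CPM in WT. The T48h rescue did not overlap any other group. It exceeded the KO by 1.54 ± 0.36 (edgeR adjusted p = 0.00224), the T12h rescue by 1.73 ± 0.37 (edgeR adjusted p = 0.00161) and WT by 2.41 ± 0.39 (edgeR adjusted p = 0.000186), all on the log2 scale. The KO against WT gave a log2 fold change of 0.87 that missed the threshold (edgeR adjusted p = 0.0606) and passed it in 5 of the 17 alternatives, where the adjusted p ranged from 0.0304 to 0.294. Cldn11, a claudin of myelin and of the testis barrier, was also highest in the T48h rescue. It had 5.50 and 4.09 CPM in the T48h rescue, 1.06 and 0.859 CPM in the T12h rescue, 0.322 and 0.162 CPM in the KO and 0.305 and 0.683 CPM in WT. The KO and WT overlapped, and the rescues lay above them. It exceeded the KO by 4.24 ± 0.58 on the log2 scale in the T48h rescue (edgeR adjusted p = 2.50e-05) and by 1.92 ± 0.56 in the T12h rescue (edgeR adjusted p = 0.00894). Against WT, Cldn11 passed the test in the T48h rescue (log2 fold change 3.28, edgeR adjusted p = 0.000289). In the T12h rescue it did not (0.96, edgeR adjusted p = 0.291).

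The other tested claudins were scarce, and 3 of them passed a test. Cldn9, known from the inner ear, had 0.490 and 0.515 CPM in the T48h rescue, 2.24 and 1.05 CPM in the KO and 0.527 and 0.564 CPM in WT. It was called higher in the KO than in WT (log2 fold change 1.6 ± 0.63, edgeR adjusted p = 0.0407), which did not hold without WT replicate a (adjusted p = 0.174), WT replicate b (0.150), KO replicate a (0.315) or T12h replicate b (0.0536), within a range of 0.0167 to 0.315. It was called lower in the T48h rescue than in the KO (log2 fold change -1.72 ± 0.63, edgeR adjusted p = 0.0286), which did not hold without KO replicate a (0.228), T48h replicate a (0.0684) or T48h replicate b (0.0658), within a range of 0.0119 to 0.228. Cldn10, a channel-forming claudin of the kidney, had 0 and 3 estimated fragments in the T48h rescue, 1 and 3 in the T12h rescue, 35 and 25 in the KO and 14 and 6 in WT. It was called lower in both rescues than in the KO (edgeR adjusted p = 0.0148 for T48h and 0.0146 for T12h), and the ranges over the alternatives were 0.00258 to 0.11 and 0.00274 to 0.16. The T48h call of Cldn10 was lost without KO replicate b (0.0548) or T48h replicate a (0.11). Its T12h call was lost without WT replicate a (0.053), KO replicate b (0.0554), T12h replicate a (0.16) or T12h replicate b (0.0671). Cldn23 had 0 and 6 estimated fragments in the T48h rescue and 25 and 27 in the KO, and its call (edgeR adjusted p = 0.0424) was lost in 7 of 15 alternatives, within a range of 0.00478 to 0.188. These were the fit of the compared groups alone (0.0769) and those without T48h replicate a (0.188), T12h replicate a (0.0809), T12h replicate b (0.0845), KO replicate b (0.171), WT replicate a (0.0896) or WT replicate b (0.0917). Cldn1, Cldn3, Cldn15 and Cldn20 passed no test in any of the 6 comparisons.

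Among the connexins, Gja1, the most widely used connexin and the main one of the working heart muscle, had the highest FPKM in every library. It had 425 and 430.3 CPM in the T48h rescue, 539 and 595 CPM in the T12h rescue, 579.6 and 611 CPM in the KO and 610.1 and 554 CPM in WT. The T48h rescue lay below the other 3 groups, which overlapped one another. Gja1 fell in the T48h rescue by 0.48 ± 0.07 on the log2 scale against the KO (edgeR adjusted p = 7.20e-05), by 0.41 ± 0.07 against the T12h rescue (edgeR adjusted p = 0.000457) and by 0.45 ± 0.07 against WT (edgeR adjusted p = 0.000238). The KO and WT differed by 0.03 on the log2 scale, which did not pass the test.

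Gjc1, the connexin of the early heart tube and of smooth muscle, had the opposite profile to Cldn6. It had 105 and 103 CPM in the T48h rescue, 97.8 and 96.4 CPM in the T12h rescue, 19.6 and 18.2 CPM in the KO and 109 and 96.4 CPM in WT. The KO libraries stood far below the rest, and both rescues lay within the WT range. The log2 fold change was -2.44 ± 0.09 in the KO against WT (edgeR adjusted p = 1.13e-10). It was 2.36 ± 0.09 in the T12h rescue against the KO (edgeR adjusted p = 1.26e-10) and 2.46 ± 0.09 in the T48h rescue against the KO (edgeR adjusted p = 8.32e-11). The differences of the rescues from WT and from each other did not pass the test, with log2 fold changes between -0.17 and 0.13 over those 3 comparisons and their alternatives.

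Gjb5 and Gja4 both lie on the minus strand of chromosome 4, Gja4 at 127311420 to 127314039 and Gjb5 at 127354809 to 127358164 in the table's coordinates (mm10). Gjb5 is a connexin of the trophoblast and the epidermis in mouse, and Gja4 is one of endothelial cells and of the oocyte. Both were high in the T48h rescue, but in the KO Gjb5 was high and Gja4 was near 0.

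Gjb5 had 25.1 and 24.4 CPM in the T48h rescue, 2.44 and 1.83 CPM in the T12h rescue, 27.9 and 26.2 CPM in the KO and 5.52 and 6.94 CPM in WT. The T48h rescue and the KO were high and close to each other, WT was lower and the T12h rescue lowest. The KO exceeded WT by 2.12 ± 0.18 on the log2 scale (edgeR adjusted p = 2.98e-07), and the T12h rescue was lower than the KO by a log2 change of -3.66 ± 0.20 (edgeR adjusted p = 3.19e-09). The T48h rescue differed from the KO by -0.13 on the log2 scale, which did not pass the test, and exceeded WT by 1.99 ± 0.18 (edgeR adjusted p = 9.39e-07).

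Gja4 had 8.80 and 10.4 CPM in the T48h rescue, 0.333 and 0.308 CPM in the T12h rescue, 0.747 and 0.243 CPM in the KO and 0.388 and 0.267 CPM in WT. All 6 libraries of the other groups stayed under 1 CPM. The T48h rescue exceeded the KO by 4.2 ± 0.48 (edgeR adjusted p = 4.81e-06), the T12h rescue by 4.89 ± 0.51 (edgeR adjusted p = 3.47e-06) and WT by 4.86 ± 0.52 (edgeR adjusted p = 4.76e-06), all on the log2 scale. Without KO replicate b, the T12h rescue also passed the test against the KO for Gja4 (log2 fold change -1.20, adjusted p = 0.0296), and so did the KO against WT (1.17, adjusted p = 0.0408). Over the alternatives these adjusted p ranged from 0.0296 to 0.545 and from 0.0408 to 0.653.

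Gjb1, a connexin of the liver and of myelinating Schwann cells, had 0.163 and 0.809 CPM in the T48h rescue, 1.24 and 0.881 CPM in the T12h rescue, 1.49 and 2.32 CPM in the KO and 0.444 and 0.683 CPM in WT. It was called higher in the KO than in WT (log2 fold change 1.75 ± 0.71, edgeR adjusted p = 0.0440), but not without WT replicate a (adjusted p = 0.222), WT replicate b (0.102), KO replicate b (0.161), T12h replicate a (0.0624) or T12h replicate b (0.0587), nor with the first technical column alone (0.0866), within a range of 0.00959 to 0.222. It was called lower in the T48h rescue than in the KO (log2 fold change -1.95 ± 0.71, edgeR adjusted p = 0.0267), but not without KO replicate b (adjusted p = 0.106) or T48h replicate a (0.112), within a range of 0.00251 to 0.112. Gjb2, a connexin of the cochlea and the skin, had 0.444 and 0.551 CPM in the T12h rescue and 2.05 and 1.59 CPM in the KO (log2 fold change -1.87 ± 0.55, edgeR adjusted p = 0.00916). That call did not hold without T12h replicate a (adjusted p = 0.0640), within a range of 0.0013 to 0.0640. Gjd3 passed no test.

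The KO against WT sets the Wdr5 KO clone beside cells with an intact Wdr5 gene. In the KO, the members called higher included Cldn4, Cldn5, Cldn6, Cldn7, Cldn9, Gjb1 and Gjb5, and those called lower were Cldn12, Cldn25 and Gjc1. That is 9 of 24 tested members (37.5%) higher and 3 (12.5%) lower at an edgeR adjusted p under 0.05. Over all 16130 tested loci 31.7% were called higher and 32.4% lower, so the share called higher was close to that of all loci and the share called lower was below it. The median log2 fold change was 0.76 over the tested members and 0.004 over all loci. The count called higher was 5 without WT replicate a, and the count called lower was 5 without KO replicate a.

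The T12h rescue set against the KO shows the earlier return of WDR5. In it, Cldn11, Cldn12, Cldn25 and Gjc1 were called higher, and the members called lower included Cldn4, Cldn5, Cldn6, Cldn10, Gjb2 and Gjb5. This makes 4 of 24 members (16.7%) higher and 8 (33.3%) lower, beside 32.8% and 32.1% of all tested loci. The median log2 fold change was -0.52 over the tested members and -0.009 over all loci. The count called lower was 13 when either T48h library was left out of the fit, which also changed which loci were tested. Against WT the same rescue had 1 member called higher, Cldn6, and 3 called lower, Cldn4 and Gjb5 among them. These shares, 4.17% and 12.5%, stand beside 7.9% and 6.11% of all tested loci. For Cldn6 the T12h rescue exceeded WT by 0.50 ± 0.12 on the log2 scale (edgeR adjusted p = 0.0167), and the call did not hold without T12h replicate a (adjusted p = 0.102), T12h replicate b (0.0835) or WT replicate a (0.168), which leaves 0 members called higher, within a range of 2.10e-06 to 0.168. Gjb5 was lower in the T12h rescue than in WT by a log2 change of -1.54 ± 0.20 (edgeR adjusted p = 0.000199).

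In the T48h rescue, Cldn11, Cldn12, Cldn2, Cldn25, Gja4 and Gjc1 were called higher than in the KO, and the members called lower included Cldn4, Cldn6, Cldn7, Cldn9, Cldn10, Cldn23, Gja1 and Gjb1. This makes 6 of 24 members (25%) higher and 10 (41.7%) lower, beside 34.2% and 33.2% of all tested loci. The median log2 fold change was -0.62 over the tested members and -0.003 over all loci, and the count called lower was 6 without T48h replicate a. Against WT, Cldn11, Cldn2, Cldn25, Cldn5, Gja4 and Gjb5 were called higher in the T48h rescue and Cldn4 and Gja1 lower. That is 6 of 24 (25%) and 2 of 24 (8.33%), beside 23.9% and 23.4% of all tested loci, and the count called lower was 4 without T48h replicate b. Under upper-quartile scaling the median of all loci in the T48h rescue shifted by -0.144 against the KO and by -0.124 against WT on the log2 scale, and 38.9% in place of 50.6% of the loci called against WT were higher. Gja1 then fell by 0.62 against the KO and by 0.57 against WT. A change of scaling moves all loci by about the same amount, so these values are no separate check of its fall.

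**Figure D2:**
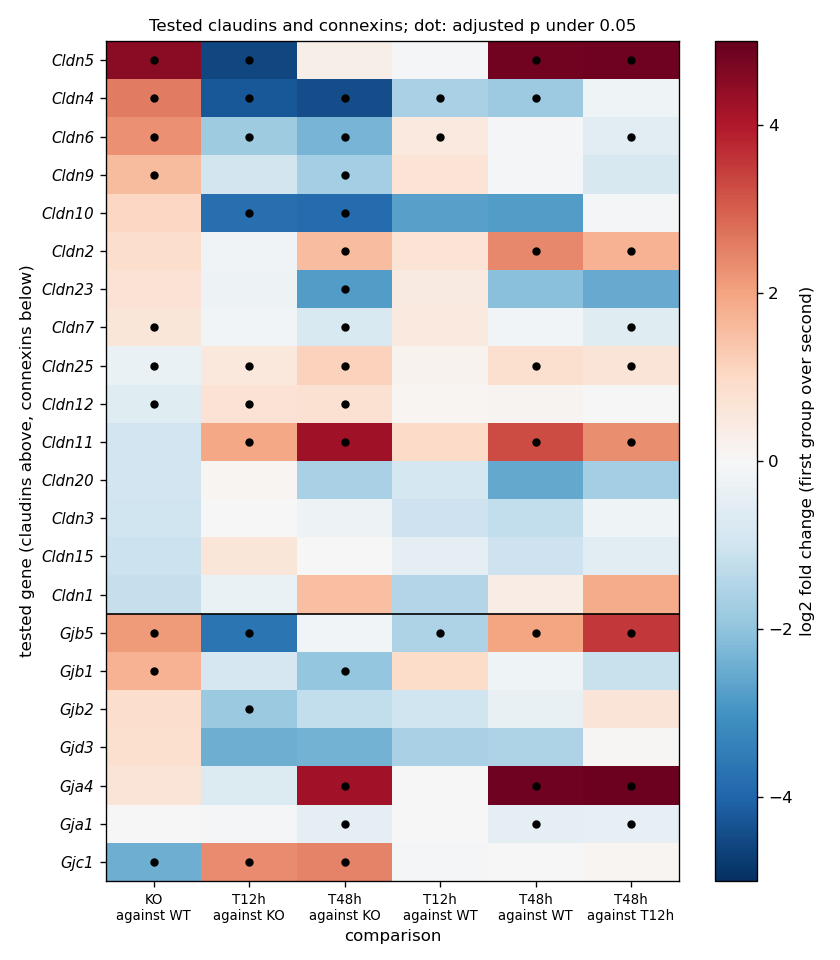
log2 fold changes of 22 tested genes (rows, claudins above connexins, ordered by the change in the KO against WT) in the 6 comparisons (columns), with red for higher in the group named first and a dot where the edgeR adjusted p is under 0.05. The KO against WT column has 10 dots, 7 red and 3 blue, and the T12h against WT column has 3 dots.

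The rescues set against each other show the difference between later and earlier induction. In the T48h rescue, the members called higher than in the T12h rescue included Cldn11, Cldn2, Cldn25, Cldn5, Gja4 and Gjb5, and those called lower were Cldn6, Cldn7 and Gja1. This makes 7 of 24 members (29.2%) higher and 3 (12.5%) lower, beside 24.9% and 25.3% of all tested loci, with a median log2 fold change of -0.045 over the tested members and -0.031 over all loci. Gjb5 was higher in the T48h rescue by 3.53 ± 0.20 on the log2 scale (edgeR adjusted p = 5.67e-09). Cldn6 was lower by a log2 change of -0.55 ± 0.12 (edgeR adjusted p = 0.00234), which was -0.83 without T48h replicate b and -0.36 without T48h replicate a. Cldn7 was lower by a log2 change of -0.61 ± 0.18 (edgeR adjusted p = 0.0143), which did not hold without T12h replicate b (adjusted p = 0.0930) or T48h replicate a (0.0774), within a range of 0.000946 to 0.0930. The count called lower was 5 without T48h replicate b.

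Per unit of transcript length, the claudins summed to 113 and 125 FPKM in the T48h rescue, 118 and 117 FPKM in the T12h rescue, 251 and 264 FPKM in the KO and 93.3 and 106 FPKM in WT. Both KO libraries thus held more claudin RNA than any other library. The connexins summed to 191 and 191 FPKM in the T48h rescue, 197 and 212 FPKM in the T12h rescue, 221 and 231 FPKM in the KO and 232 and 209 FPKM in WT, so their total differed less between groups than that of the claudins. These sums are of the deposited FPKM and were not tested.

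The make-up of the claudin total also differed between groups. Cldn6 supplied 23.5% and 29.2% of the claudin FPKM in the T48h rescue, 38.9% and 38.8% in the T12h rescue, 63.8% and 65.3% in the KO and 33.3% and 32.2% in WT. A share also falls when another member rises. Cldn12, Cldn25 and Cldn6 together made up most of the sum in every group. The locus named Cldn25, which is Cldnd1 in the GENCODE annotation, is counted in these claudin sums. It was the leading locus of the sum in the T48h rescue, with 35.4% and 33.9%, against 22.4% and 23.1% in the T12h rescue, 7.52% and 7.68% in the KO and 22.8% and 24.3% in WT. Cldn4 held 1.43% and 0.855% in the T48h rescue, 1.49% and 1.15% in the T12h rescue, 12.5% and 11.4% in the KO and 5.13% and 4.47% in WT.

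Gja1 supplied 63.2% and 63.7% of the connexin FPKM in the T48h rescue, 77.8% and 79.4% in the T12h rescue, 78.1% and 79.3% in the KO and 75.0% and 75.2% in WT. Gjc1 held 23.3% and 22.7% in the T48h rescue, 20.3% and 18.9% in the T12h rescue, 3.6% and 3.39% in the KO and 20% and 19.2% in WT. Gjb5 held 7.16% and 6.94% in the T48h rescue, 0.678% and 0.467% in the T12h rescue, 7.23% and 6.56% in the KO and 1.3% and 1.82% in WT.

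**Figure D3:**
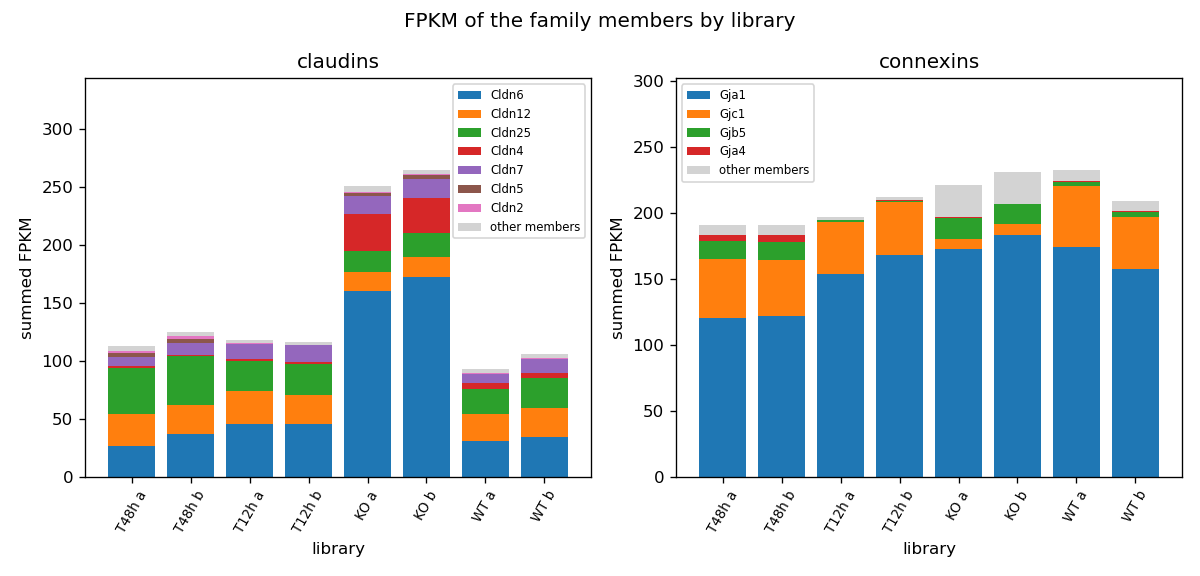
Summed FPKM of the claudins (left) and the connexins (right) in each of the 8 libraries, stacked by gene, with all other members in grey. The KO claudin bars reach 251 and 264 FPKM, of which Cldn6 is the largest piece, and the connexin bars lie between 191 and 232 FPKM with Gja1 the largest piece in each.

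The claudins act with a second group of membrane proteins, among them occludin, tricellulin and the junctional adhesion molecules, of which 13 of 14 listed names were tested (Cldnd1 is the locus named Cldn25). In the KO against WT 8 of the 13 were called higher (61.5%) and 4 lower (30.8%), beside 31.7% and 32.4% of all tested loci, with a median log2 fold change of 1.87. Those with the smallest p were F11r and Lsr, an adhesion molecule and a protein of tricellular contacts, with log2 fold changes of 2.44 ± 0.09 (edgeR adjusted p = 1.36e-10) and 1.95 ± 0.08 (edgeR adjusted p = 4.23e-10), and Jam3 and Ildr2, with -2.33 ± 0.09 and -2.52 ± 0.10 (edgeR adjusted p = 1.50e-10 for each). In the T12h rescue against the KO 4 were called higher (30.8%) and 8 lower (61.5%), beside 32.8% and 32.1% of all loci, and in the T48h rescue against the KO 2 higher (15.4%) and 10 lower (76.9%), beside 34.2% and 33.2%. Against WT, 3 were called higher (23.1%) and 1 lower (7.69%) in the T12h rescue, beside 7.9% and 6.11% of all loci, and 3 higher (23.1%) and 6 lower (46.2%) in the T48h rescue, beside 23.9% and 23.4%. Between the rescues, 2 were called higher (15.4%) and 6 lower (46.2%) in the T48h rescue, beside 24.9% and 25.3% of all loci. There Ildr2 averaged 3.04 CPM in the T48h rescue and 162 CPM in the T12h rescue, a log2 change of -5.73 ± 0.12 (edgeR adjusted p = 8.01e-13).

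Of 22 listed names of scaffold proteins under the tight junction (2 of them aliases), 19 were tested. In the KO against WT 5 were called higher (26.3%) and 6 lower (31.6%), shares near the 31.7% and 32.4% of all tested loci, with a median log2 fold change of -0.05. Mpdz, a scaffold with many PDZ domains, averaged 25.1 CPM in the KO and 147 CPM in WT, and Inadl, its paralogue, averaged 98.0 CPM in the KO and 23.8 CPM in WT. Their log2 fold changes were -2.55 ± 0.09 (edgeR adjusted p = 8.69e-11) and 2.04 ± 0.11 (edgeR adjusted p = 2.47e-09). In the T12h rescue against the KO 9 were called higher (47.4%) and 6 lower (31.6%), beside 32.8% and 32.1% of all loci, and in the T48h rescue against the KO 11 higher (57.9%) and 4 lower (21.1%), beside 34.2% and 33.2%. Against WT the T12h rescue had 3 higher (15.8%) and 1 lower (5.26%), beside 7.9% and 6.11% of all loci. Against WT the T48h rescue had 9 higher (47.4%) and 4 lower (21.1%), beside 23.9% and 23.4%, and against the T12h rescue it had 9 higher (47.4%) and 6 lower (31.6%), beside 24.9% and 25.3%. Of the pannexins, which form channels like connexins but belong to another family, 2 of 3 were tested. Both were called lower in the KO against WT, beside 32.4% of all tested loci. Panx1, the abundant one, averaged 27.1 CPM in the KO and 33.8 CPM in WT (log2 fold change -0.32 ± 0.11, edgeR adjusted p = 0.0206).

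The regulators of epithelial state form the last list, with 9 of 11 names tested. In the KO against WT 8 of the 9 were called higher (88.9%) and 1, Zeb1, lower (11.1%), beside 31.7% and 32.4% of all tested loci, with a median log2 fold change of 2.85. Zeb1, a repressor of epithelial genes, averaged 9.20 CPM in the KO and 118 CPM in WT (log2 fold change -3.69 ± 0.11, edgeR adjusted p = 2.62e-11). Esrp2 and Esrp1, splicing factors of epithelial cells, and Grhl2, an activator of epithelial junction genes, were higher in the KO by 4.46 ± 0.21 (edgeR adjusted p = 1.06e-09), 2.85 ± 0.14 (edgeR adjusted p = 1.39e-09) and 3.6 ± 0.21 (edgeR adjusted p = 8.99e-09). Snai1, like Zeb1 a repressor of epithelial genes, did not share its direction. It averaged 52.2 CPM in the T48h rescue, 9.91 CPM in the T12h rescue, 16.6 CPM in the KO and 7.19 CPM in WT, and was higher in the KO than in WT by 1.21 ± 0.19 on the log2 scale (edgeR adjusted p = 9.47e-05). Snai1 was thus higher in the KO than in WT, where Cldn4, Cldn6 and Cldn7 were higher too. Its highest level was in the T48h rescue. There the means of Cldn4 (2.63 CPM), Cldn6 (49.3 CPM) and Cldn7 (11.9 CPM) were the lowest of the 4 groups, though Cldn6 and Cldn7 overlapped WT. Cldn4 overlapped the T12h rescue (mean 3.03 CPM), in which Snai1 averaged 9.91 CPM. The Cldn4 difference between the rescues did not pass the test (log2 fold change -0.215, edgeR adjusted p = 0.422). Whether Snai1 acts on these genes was not tested. In the T12h rescue against the KO Zeb1 was called higher and the other 8 lower (11.1% and 88.9%, beside 32.8% and 32.1% of all loci). In the T48h rescue against the KO Zeb1 and Snai1 were called higher and 6 lower (22.2% and 66.7%, beside 34.2% and 33.2%). Against WT, 1 was called higher and 3 lower in the T12h rescue (11.1% and 33.3%, beside 7.9% and 6.11% of all loci), and 5 higher and 1 lower in the T48h rescue (55.6% and 11.1%, beside 23.9% and 23.4%). Between the rescues 5 were higher and 1 lower in the T48h rescue (55.6% and 11.1%, beside 24.9% and 25.3%). Zeb2 and Snai2 were not tested because their names are joined with others or stand on more than 1 locus.

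Markers of cell types that use these junction genes also differed between the groups, in part alongside the members and in part not, and their part in the results above was not tested. The 10 simple epithelium markers summed to 1213 and 1178 CPM in the T48h rescue, 278 and 310.0 CPM in the T12h rescue, 2254 and 2270 CPM in the KO and 297 and 285 CPM in WT. All 10 were called higher in the KO against WT (100%), beside 31.7% of all tested loci. The 8 trophoblast markers found of 10, of which Krt7 is also in the epithelium list, summed to 82.2 and 87.0 CPM in the T48h rescue, 22.9 and 24.0 CPM in the T12h rescue, 144 and 144 CPM in the KO and 27.9 and 25.3 CPM in WT, with Elf5 at 0 in the T48h rescue. These 2 sums were highest in the KO, as Cldn4, Cldn6 and Gjb5 were. Without Tfap2c the trophoblast sums of the KO (89.2 and 83.2 CPM) and the T48h rescue (78.2 and 84.5 CPM) overlapped. In the T48h rescue against the KO 3 epithelium markers were called higher (30%) and 7 lower (70%). Of the trophoblast markers 3 were called higher (37.5%) and 4 lower (50%), beside 34.2% and 33.2% of all tested loci. In the T48h rescue both sums stood above WT, while Cldn4 lay below WT and Cldn6 near it. The single markers were split there, with 5 epithelium markers called higher than in WT (50%) and 3 lower (30%). Of the trophoblast markers 5 were called higher (62.5%) and 3 lower (37.5%), beside 23.9% and 23.4% of all tested loci. Cdh1, the E-cadherin of the epithelium list, had 63.1 and 70.9 CPM in the T48h rescue, 57.5 and 73.3 CPM in the T12h rescue, 958 and 961 CPM in the KO and 62.7 and 54.8 CPM in WT. The 12 endothelium markers summed to 1000 and 983 CPM in the T48h rescue, 211 and 219 CPM in the T12h rescue, 344 and 317 CPM in the KO and 152 and 141 CPM in WT. All 12 were called higher in the T48h rescue against the T12h rescue (100%), beside 24.9% of all tested loci. Cldn5 and Gja4 were called higher there too, and Emcn was at 0 in the KO. In the T48h rescue against the KO 9 were called higher (75%) and 1 lower (8.33%), beside 34.2% and 33.2% of all tested loci. Gja4 was called higher there and Cldn5 was not. In the KO against WT 8 were called higher (66.7%) and 1, Kdr, lower (8.33%), beside 31.7% and 32.4%. There Cldn5 was called higher and Gja4 was not.

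The 9 heart muscle markers found of 11 summed to 752 and 791 CPM in the T48h rescue, 11.1 and 12.1 CPM in the T12h rescue, 50.2 and 60.6 CPM in the KO and 14.7 and 14.8 CPM in WT. In the T48h rescue against the KO 8 of the 9 were called higher (88.9%), beside 34.2% of all tested loci. This sum was high in the group in which Gja1, the connexin of working heart muscle, was lowest. The 11 neural progenitor and eye field markers found of 13 summed to 224 and 210.0 CPM in the T48h rescue, 2132 and 2190.0 CPM in the T12h rescue, 254 and 241 CPM in the KO and 2016 and 1929 CPM in WT. Of these 11 markers, 10 were called lower in the KO against WT (90.9%), beside 32.4% of all tested loci. The 10 markers of pluripotent cells summed to 730 and 826 CPM in the T48h rescue, 827 and 811 CPM in the T12h rescue, 1395 and 1388 CPM in the KO and 1066 and 1038 CPM in WT, with 9 of the 10 called higher in the KO against WT (90%, beside 31.7% of all tested loci). Most of that sum outside the KO was Lin28a, the exception, at 695 and 787 CPM in the T48h rescue, 783 and 767 CPM in the T12h rescue, 569 and 574 CPM in the KO and 917 and 869 CPM in WT. The other 9 summed to 34.9 and 38.4 CPM in the T48h rescue, 44.1 and 43.7 CPM in the T12h rescue, 826 and 814 CPM in the KO and 149.7 and 169 CPM in WT. All 9 were called lower in the T12h rescue than in WT, beside 6.11% of all tested loci. The markers defining a neural fate were thus high where Cldn5 and Gjb5 were low, in the T12h rescue and WT.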

How the data were processed

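Embryoid bodies at day 6 were measured by RNA sequencing in 16 samples, which are 4 groups with 2 replicates of 2 technical runs. The genome build was mm10 and the tools were Cufflinks 2.2.1, TopHat2 2.1.1, deepTools and SAMtools 1.5, per the submitters' processing notes. Neither the annotation nor the strand setting is given in the sources used here.

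Per the file headers, the deposited tables hold estimated counts of fragments and FPKM for 28432 loci. The values show that the authors' software scaled the estimated counts by 1 factor per column: 90.9% to 92.1% of values were whole multiples of a step of 0.63 to 1.29, within 0.02 fragments. The factor was divided out. The columns carry no replicate number, so technical columns were matched within each group by a chi-square of their counts (1.6 to 1.83 per degree of freedom within pairs, 9.08 to 16.5 between), summed and rounded. Left out were 5143 unnamed loci (3.16% to 6.12% of counts), 8 loci marked as too deep and 112 companion columns, which left 23282 named loci.

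CPM use TMM-scaled library sizes. The test was edgeR 4.0.16 under R 4.3.3 (quasi-likelihood F-test, TMM, filterByExpr, all 4 groups in 1 fit, 4 residual degrees of freedom, common biological coefficient of variation 12.6%), with two-sided Benjamini-Hochberg adjusted p over 16130 loci and a threshold of 0.05. The SE is the size of the log2 fold change over the root of F. The procedure was also run on simulated data in which few loci were changed, in the KO alone. Far more loci were called in the real data, so that run does not show its error rate here. Alternatives used RLE and upper-quartile scaling, no filter, DESeq2 1.42.0, the compared groups alone, each library left out, 1 technical column, undivided counts, and limma 3.58.1 on log2(FPKM + 1) or log2(FPKM + 0.1), which understates changes of low genes. Members at 5 CPM or more in a group were named with all values (some members are counted but not reported here), and up to 4 genes of each partner list by smallest p. Other members, Cldn11 among them, and Snai1, Cdh1 and Lin28a were named after their values were seen. Promoter windows are the 250 bases before each RefSeq start (43 windows for 31 members), and 6 motifs were searched on both strands after values were seen. The members and lists were chosen with earlier results of these data known.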

Additional observations from a re-analysis of the deposited data

Results flagged for a closer look

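The effects of the 2 rescues against the KO differed for 10 members, of which 9 are given here, by the edgeR test of the T48h rescue against the T12h rescue, in which the shared KO term cancels. Of the 24 tested members 29.2% were called higher and 12.5% lower, beside 24.9% and 25.3% of all tested loci, so the count as such does not set the members apart. The difference, T48h minus T12h on the log2 scale, was 4.89 for Gja4, 4.87 for Cldn5, 3.53 for Gjb5, 2.32 for Cldn11, 1.73 for Cldn2 and 0.63 for Cldn25. It was -0.41 for Gja1, -0.55 for Cldn6 and -0.61 for Cldn7, and the last of these was lost when T12h replicate b or T48h replicate a was left out. Groups of 2 libraries are too small for a check of single outlying samples.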

How the results depend on the processing

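Over the 19 members at 5 CPM or called in a comparison, 48 of 62 calls were kept under every alternative that gave a value, and no member's call reversed. Of 1922 repeated values 45 lost a call and 21 gained one. Of the 14 calls lost somewhere, 10 belonged to members under 5 CPM in every group and 4 to Cldn25, Cldn7 (in 2 comparisons) and Cldn6. The cause was not tested. The T12h against WT count called higher was 0 in place of 1 under both limma settings, and the T48h against WT count called lower was 4 with the first technical column alone.

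When single libraries were left out, with the lone library of that group assumed to vary like the others, the counts called higher and lower ranged from 5 to 11 and 2 to 5 in the KO against WT, 4 to 5 and 6 to 13 in T12h against the KO, 6 to 7 and 6 to 12 in T48h against the KO, 0 to 1 and 3 to 3 in T12h against WT, 6 to 6 and 2 to 4 in T48h against WT, and 7 to 8 and 2 to 5 in T48h against T12h. Over all loci, T12h against WT had 1275 called higher and 986 lower, and single left-out libraries of these groups gave as few as 609 higher and 459 lower (without WT replicate a). No paired analysis was possible because the columns carry no replicate number.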
